A study of Mus musculus with 2 samples.

Results

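The Ehf peaks of 4 Kruppel-like factor loci, Klf3, Klf4, Klf5 and Klf6, were taken from a genome-wide peak list of the mouse corneal epithelium. Ehf belongs to the ETS family of transcription factors and is known from epithelia. A peak, which is a stretch of the genome where chromatin precipitated with the Ehf antibody gave a call, was assigned to a locus when its midpoint lay in a fixed window of build mm9. The windows were chr5:65090000-65330000 for Klf3, chr4:55440000-55645000 for Klf4, chr14:99590000-99820000 for Klf5 and chr13:5760000-5970000 for Klf6. They are 205 to 240 kb long and 885 kb in all. They held 13 of the 15384 peaks in the list, 6 at Klf3, 3 at Klf4, 2 at Klf5 and 2 at Klf6.

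Corneal epithelium was taken from wild type mice, called CB6 in some labels and C57Bl/6 in others, at 2 to 3 months of age, by digestion of the eyes with dispase. Tissue of 15 mice was pooled. From 24 ug of the sonicated chromatin, DNA was precipitated with an antibody to Ehf, and the input, which had no antibody, served as the control. Each group has 1 library, so no value below has a replicate error and no condition was compared. A peak list holds no expression values, so the labelled tissue was not checked against cell markers. Read counts per peak are unknown, and the input library was not analysed here.

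Kruppel-like factors are transcription factors that end in zinc fingers and bind GC-rich and CACCC elements. In epithelia they are known as regulators of the balance between growth and differentiation. Klf4 promotes epithelial differentiation and barrier formation, and its loss from the ocular surface of mice is known to disturb the corneal epithelium. Klf5 is best known from proliferating basal cells of epithelia and is also needed in the ocular surface. Klf6 is a broadly expressed factor known from the response to injury. Klf3 is mainly a repressor, which works through the corepressor CtBP.

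ETS factors bind a GGAA core. The stretches of 250 bases before the start site of the Klf3, Klf4 and Klf6 genes are printed because they are the regulatory sequences of the members that could be read. They come from RefSeq, build GRCm38.p6, whose positions cannot be set beside the mm9 positions of the peaks, so whether a peak lies on them was not analysed. They are chr5:64803271-64803520 on the plus strand for Klf3, chr4:55532476-55532725 on the minus strand for Klf4 and chr13:5861239-5861488 on the plus strand for Klf6. Each reads 5′ to 3′ along the gene, and capitals mark the core GGAA or its reverse complement TTCC.
Klf3: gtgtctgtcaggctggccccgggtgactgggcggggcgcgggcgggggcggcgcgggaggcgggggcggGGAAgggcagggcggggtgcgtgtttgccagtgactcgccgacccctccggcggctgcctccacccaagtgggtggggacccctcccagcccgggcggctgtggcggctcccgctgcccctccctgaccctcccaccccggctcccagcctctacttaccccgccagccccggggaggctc
Klf4: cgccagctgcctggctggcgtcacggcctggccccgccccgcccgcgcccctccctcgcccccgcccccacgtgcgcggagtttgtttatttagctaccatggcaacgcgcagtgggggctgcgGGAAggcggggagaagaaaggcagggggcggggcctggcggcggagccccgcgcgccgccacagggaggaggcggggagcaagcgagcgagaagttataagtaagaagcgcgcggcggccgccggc
Klf6: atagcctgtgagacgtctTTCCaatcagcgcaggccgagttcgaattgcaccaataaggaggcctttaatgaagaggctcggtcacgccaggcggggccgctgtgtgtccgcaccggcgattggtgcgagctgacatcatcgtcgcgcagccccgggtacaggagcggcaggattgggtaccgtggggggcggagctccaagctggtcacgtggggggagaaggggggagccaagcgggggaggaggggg

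Each of these 3 sequences held a single core, searched on both strands. In Klf3 it began 181 bases before the start site, and in Klf4 it began 126 bases before it, both on the strand of the gene. In Klf6 the core was on the opposite strand, 232 to 229 bases before the start. Among all 32851 promoters of the same length in the table, 93.4% held a GGAA core, with a median of 3, and 23.2% held 1 or none. The longer forms CCGGAA, present in 12.0% of all promoters, and CCGGAAGT, present in 2.88%, both of which contain the core, were not in the 3 sequences. The 3 sequences were GC-rich, with 78.4% G and C at Klf3, 74.0% at Klf4 and 64.8% at Klf6, against a median of 52.4% over all promoters. The promoters compared were not matched for G and C. Whether the single cores go with this composition was not tested. A core in a sequence is a match of letters and no evidence of binding.

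Peaks were densest at Klf3. Its window held 25 peaks per Mb, that of Klf4 14.6, that of Klf6 9.52 and that of Klf5 8.70. The exact 95% Poisson intervals, which cover counting error only and treat peaks as independent, were 9.17 to 54.4 per Mb for Klf3, 3.02 to 42.8 for Klf4, 1.15 to 34.4 for Klf6 and 1.05 to 31.4 for Klf5. All 4 intervals overlap, which by itself does not settle whether the rates differ. No test between loci was made, so the order of the loci is left unresolved at these counts. In windows of equal length on the same chromosome, the SD of the count was above its mean. It was 1.96 against 1.76 for Klf3, 1.82 against 1.38 for Klf4, 1.39 against 1.08 for Klf5 and 1.37 against 1.18 for Klf6. Counts thus spread more than Poisson counts of these means, and the intervals are too narrow.

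Every locus was denser in peaks than its own chromosome from its first to its last peak, by 3.39 times at Klf3, 2.16 times at Klf4, 1.84 times at Klf5 and 1.69 times at Klf6. Chromosome 4 held 6.77 peaks per Mb, chromosome 14 4.73 and chromosome 13 5.64, inside the intervals of Klf4, Klf5 and Klf6. For these loci the excess is thus not resolved. Chromosome 5 held 7.37 per Mb, below the interval of Klf3, an interval that is too narrow. Each was then set beside windows of its own length, laid end to end along the same chromosome between its first and last peak. On chromosome 5, 35 of 621 such windows (5.64%) held the 6 peaks of Klf3 or more. On chromosome 4, 156 of 742 windows (21.0%) held the 3 peaks of Klf4 or more. For the 2 peaks of Klf5 the count was 144 of 520 windows on chromosome 14 (27.7%), and for the 2 of Klf6 it was 182 of 554 on chromosome 13 (32.9%). The median window held 1 peak on each of the 4 chromosomes. At these window lengths Klf3 lay further out in the tail of its chromosome than Klf4, Klf5 and Klf6 did in theirs. The windows directly before and after the locus held 1 and 3 peaks at Klf3, 4 and 1 at Klf4, 2 and 1 at Klf5, and 2 and 0 at Klf6. Klf3 alone held more peaks than the windows on both sides. Shares of windows describe the list and are no test. With peaks under 200 bp left out, the share for Klf3 was 12.3%, and with only peaks at or above the median score it was 1.61%. With windows shortened to 0.5 of their length around the same centre, the share for Klf4 was 7.0%. With only peaks at or above the median score it was 38.9%. With windows of double the length the order of Klf3 and Klf4 turned, with 25 of 309 windows (8.09%) for Klf3 and 27 of 370 (7.30%) for Klf4, which then held 8 peaks.

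**Figure D1:**
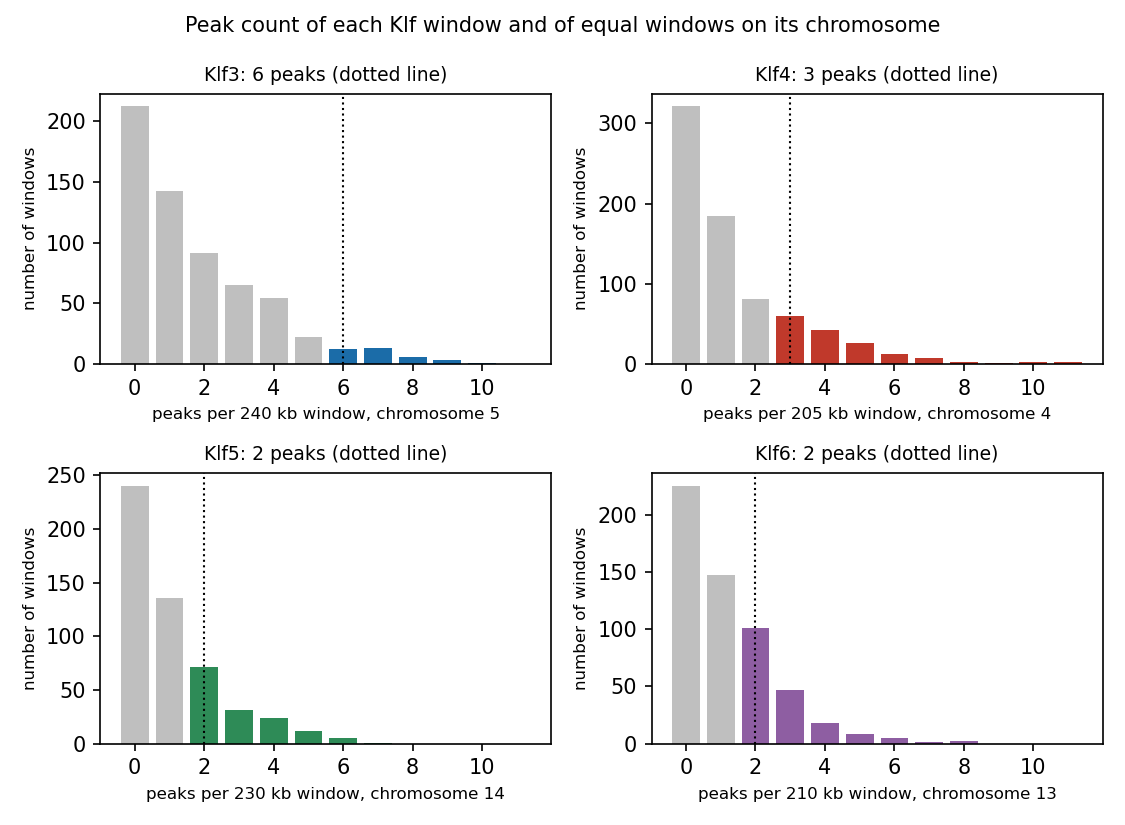
Number of windows (vertical axis) by the number of Ehf peaks they hold (horizontal axis), for windows of the length of each Klf window on its own chromosome. Coloured bars are windows with as many peaks as the locus or more (35 of 621 for Klf3, 156 of 742 for Klf4, 144 of 520 for Klf5, 182 of 554 for Klf6), and the dotted line marks the locus.

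At Klf4, the differentiation factor, all peaks of the window lay together. The first ran from 55543398 to 55543734 with a width of 336 bp and a score of 67.45. The score is the value that the authors deposited for each peak, and its scale is not stated. The second ran from 55544957 to 55545376, 419 bp wide, with a score of 79.98. The third ran from 55545434 to 55546005, 571 bp wide, with a score of 163.79, and was the highest and the widest of the locus. The score thus went up along the group, and only the third peak was above the list median of 86.2.

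The gaps within the Klf4 group were 1223 bp and 58 bp, and the whole group spanned 2.61 kb, or 1.27% of the window. Of the 1032 neighbouring pairs on chromosome 4, 16 (1.55%) were 58 bp apart or less. This gap is the smaller of the 2 in the group, and a locus with more gaps has more chances of a short one. Of 15340 runs of 3 neighbouring peaks in the whole list, 85 (0.554%), the Klf4 group included, spanned as little as this group or less. Runs were compared for Klf4 alone, with the number of peaks and the span seen there. On chromosome 4, 60 windows held exactly 3 peaks, and 0 of them (0%, 95% interval 0 to 6.02%) spanned as little. Their spans ran from 10.2 to 183 kb with a median of 91.3 kb. Over all autosomes 13 of 969 windows with 3 peaks (1.34%) did so. With peaks 1 kb or less apart merged, the group became 2 regions, and 3 of 82 windows with 2 regions on chromosome 4 (3.66%) spanned as little. By these shares the span at Klf4 was short. The comparisons with runs and with windows of 3 peaks were not planned, used the values seen at Klf4, and are no test. The Klf4 count of 3 peaks was reached by 21.0% of windows at the chosen length and by 7.0% at 0.5 of the length. At double the length the count was 8, which 7.30% reached. The share was 38.9% with only peaks at or above the median score, where 1 peak was left. It was 37.1% among windows with a peak, 31.3% with close peaks merged and 17.0% with peaks of 200 bp or more. The peaks next to the group lay 121 kb before it, with a score of 175.78, and 118 kb after it, with a score of 75.33, both outside the window. The 1 Mb around the centre of the window held 8 peaks, and 33.8% of the 1 Mb windows on chromosome 4 held as many or more.

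At Klf3, the repressor, the peaks fell into a group of 3 and 3 single peaks. The group began with a peak of 678 bp from 65194287 to 65194965, the widest of the locus, with a score of 92.15. The next lay only 260 bp further on, from 65195225 to 65195636, and had a width of 411 bp and a score of 52.20. That was the lowest score of all 13 peaks, and only 2.95% of the list scored as low or lower.

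The third Klf3 peak, from 65202313 to 65202467, was 154 bp wide and had a score of 229.47, the highest of the 13. In the whole list 589 peaks scored higher, and on chromosome 5 48 did. The single peaks followed after a gap of 53.1 kb. They ran from 65255580 to 65255733 with a width of 153 bp and a score of 108.38, from 65275740 to 65275973 with 233 bp and 113.00, and from 65299696 to 65299944 with 248 bp and 95.63. The narrowest peak of the locus was thus among the single ones, and all 3 scored above the list median.

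The 6 peaks of Klf3 spanned 106 kb, and their gaps ran from 260 bp to 53.1 kb with a median of 20.0 kb, against a median gap of 61.8 kb on chromosome 5. Of the 1100 neighbouring pairs there, 26 (2.36%) were 260 bp apart or less, where 260 bp is the smallest of the 5 gaps of the locus. None of the 12 other windows of chromosome 5 with exactly 6 peaks (0%) spanned as little, their median being 166 kb. With peaks 1 kb or less apart merged the share was 4 of 21 windows with 5 regions (19.0%), and over all autosomes it was 15 of 212 with 6 peaks (7.08%), so the short span at Klf3 depended on what it was compared with. Before the group no peak was listed for 210 kb, and the next after the last lay 61.3 kb away. The 1 Mb around the centre held 10 peaks, a number reached by 33.3% of the 1 Mb windows on chromosome 5. In the RefSeq order of protein-coding genes, Klf3 lies between Tbc1d1 and Tlr1, a Toll-like receptor gene, and Gm38457 overlaps it. The list does not say which gene a peak acts on.

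At Klf5, the factor of proliferating basal cells, the first peak was the widest of the 13. It ran from 99697799 to 99698667, was 868 bp wide and had a score of 178.75. Of the 15384 peaks, 98.1% were as narrow or narrower. On chromosome 14, 7 of the 280 windows with a peak (2.50%) had a widest peak of this width or more. Its score was reached as the highest of a window in 53 of them (18.9%). Fewer windows thus reached the width of this peak than its score, but the highest score of a window may come from a narrow peak. Among peaks of 200 bp or more in the list, 95.4% scored as low or lower.

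The other Klf5 peak ran from 99790864 to 99791160, with a width of 296 bp and a score of 69.53, below the list median. The gap between the peaks was 92.2 kb, and 51.1% of neighbouring pairs on chromosome 14 were as close or closer. Of the 71 windows on chromosome 14 with 2 peaks, 52 (73.2%) spanned as little or less, so the Klf5 peaks were no group. The nearest peaks outside lay 199 kb before and 187 kb after them. The 1 Mb around the centre held 5 peaks, which 46.6% of 1 Mb windows reached. The protein-coding neighbours of Klf5 in RefSeq are Pibf1 and Klf12, another member of the family.

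At Klf6, the injury-response factor, both peaks were narrower than the list median of 368 bp. The first ran from 5803881 to 5804171, with a width of 290 bp and a score of 79.98. The second ran from 5870092 to 5870242, with a width of 150 bp and a score of 146.92, and was the narrowest of the 13 peaks. In the whole list 3.32% of peaks were as narrow or narrower. The higher score thus belonged to the narrower peak, the reverse of the order at Klf5.

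The Klf6 peaks lay 65.9 kb apart, a gap that 41.8% of neighbouring pairs on chromosome 13 did not exceed, and 66 of the 101 windows there with 2 peaks (65.3%) spanned as little or less. Of the 329 windows there with a peak, 241 (73.3%) had a widest peak as wide as that of Klf6 or wider, and 101 (30.7%) had a highest score as high. After the second peak no other was listed for 533 kb. Of the neighbouring pairs on chromosome 13, 7.90% had such a gap or a longer one, and this gap was singled out after its value was seen. The 1 Mb around the centre held 4 peaks, and 66.7% of the 1 Mb windows on chromosome 13 held as many or more. A stretch without a listed peak had no call above the authors' threshold at this unknown depth, which does not show that Ehf is absent there. The protein-coding neighbours of Klf6 in RefSeq are Akr1e1 and Pitrm1.

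**Figure D2:**
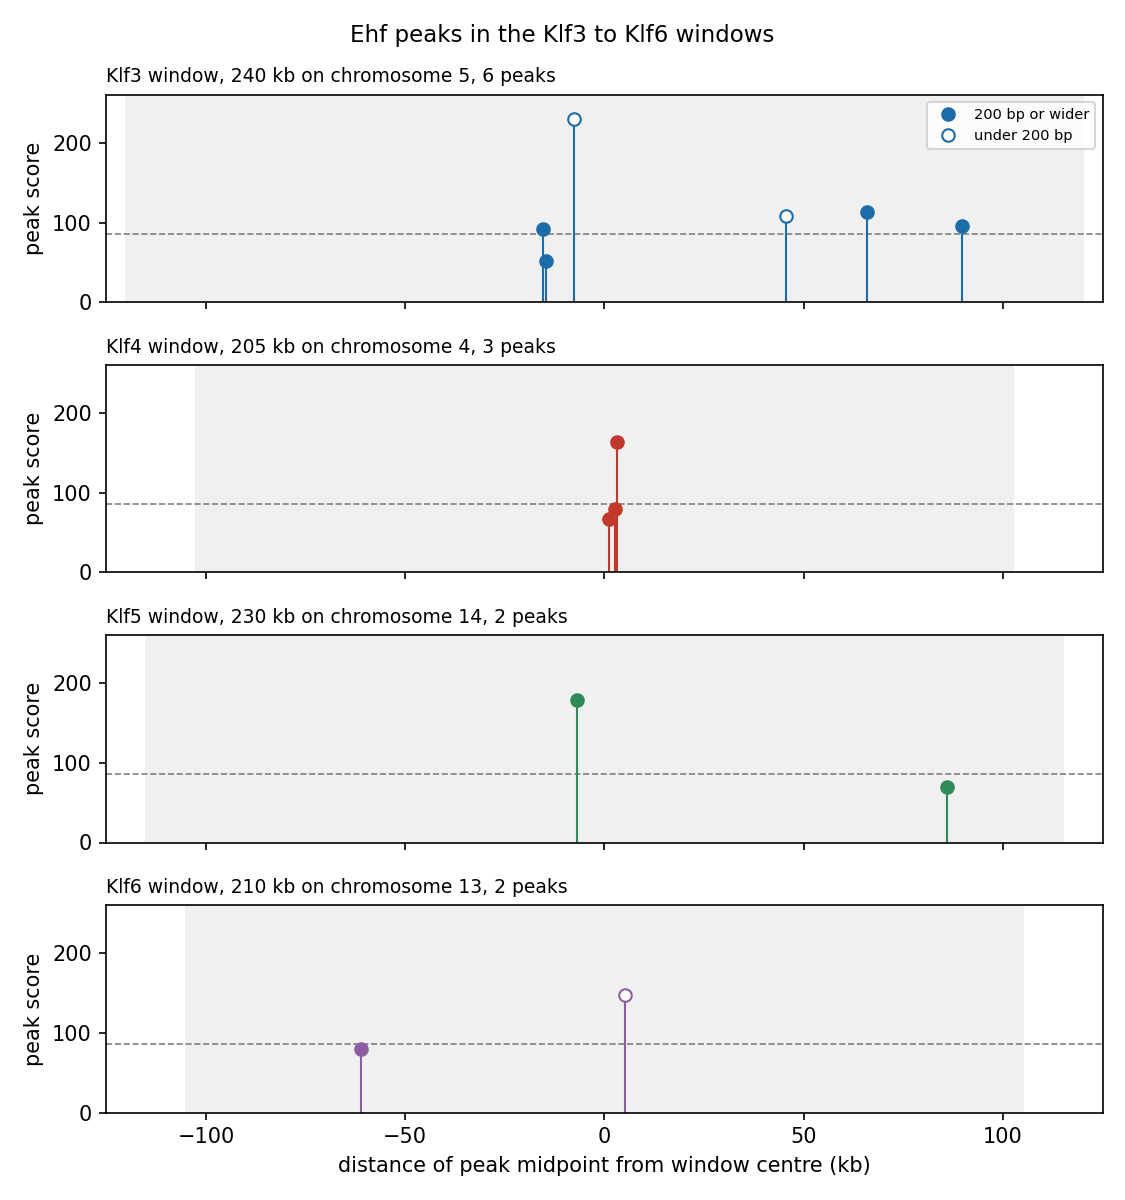
Ehf peaks in the 4 windows, by the distance of their midpoint from the centre of the window in kb (horizontal axis) and by the authors' score (vertical axis). Grey marks the window, the dashed line the list median of 86.2, and open circles peaks under 200 bp; the 3 peaks of Klf4 stand together, while the 2 of Klf5 and the 2 of Klf6 lie 92.2 and 65.9 kb apart.

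In spacing, close neighbours were found at Klf3 and Klf4. All 3 peaks of Klf4 and 3 of the 6 at Klf3 had another peak within 10 kb, against 0 of 2 at Klf5 and 0 of 2 at Klf6. In the whole list 27.2% of peaks had such a neighbour. On the chromosomes of the loci the share was 29.2% on 5, 30.0% on 4, 21.0% on 14 and 27.5% on 13.

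In score, the 13 peaks were spread over most of the list. Their median was 95.6, with 52.2 as the lowest and 229 as the highest, against a list median of 86.2 with quartiles of 66.9 and 125. At or above the list median were 8 of the 13, and at or above its upper quartile 4. Those 4 were the highest peak of each locus. The highest score of Klf3 was reached by 47 of 409 windows with a peak on chromosome 5 (11.5%) and that of Klf4 by 100 of 421 on chromosome 4 (23.8%), where a window with more peaks has more chances of a high score. The ranges of scores of the 4 loci overlapped.

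In width, the highest peaks of the loci differed in kind. Those of Klf4 and Klf5 were wide, 571 and 868 bp, and those of Klf3 and Klf6 were narrow, 154 and 150 bp. A peak under 200 bp occurred 3 times among the 13, 2 at Klf3 and 1 at Klf6, and such peaks made up 22.0% of the whole list. Over the whole list the median score was 140.02 for narrow peaks and 78.7 for wider ones, so a score means different ranks in the 2 classes. Among peaks of 200 bp or more, 95.4% scored as low as the top peak of Klf5 or lower, and 93.7% as low as that of Klf4. Among narrow peaks, 89.1% scored as low as the top peak of Klf3 or lower, and 58.7% as low as that of Klf6. Within its width class, the top peak of Klf6 therefore lay near the middle, while the tops of Klf5, Klf4 and Klf3 lay in the upper part. Each top was picked as the highest of its locus and ranked among single peaks. That choice raises the rank, most for Klf3 with 6 peaks. The widest peak of Klf3, 678 bp, was matched by 52 of 409 windows with a peak (12.7%), and that of Klf4, 571 bp, by 103 of 421 (24.5%).

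**Figure D3:**
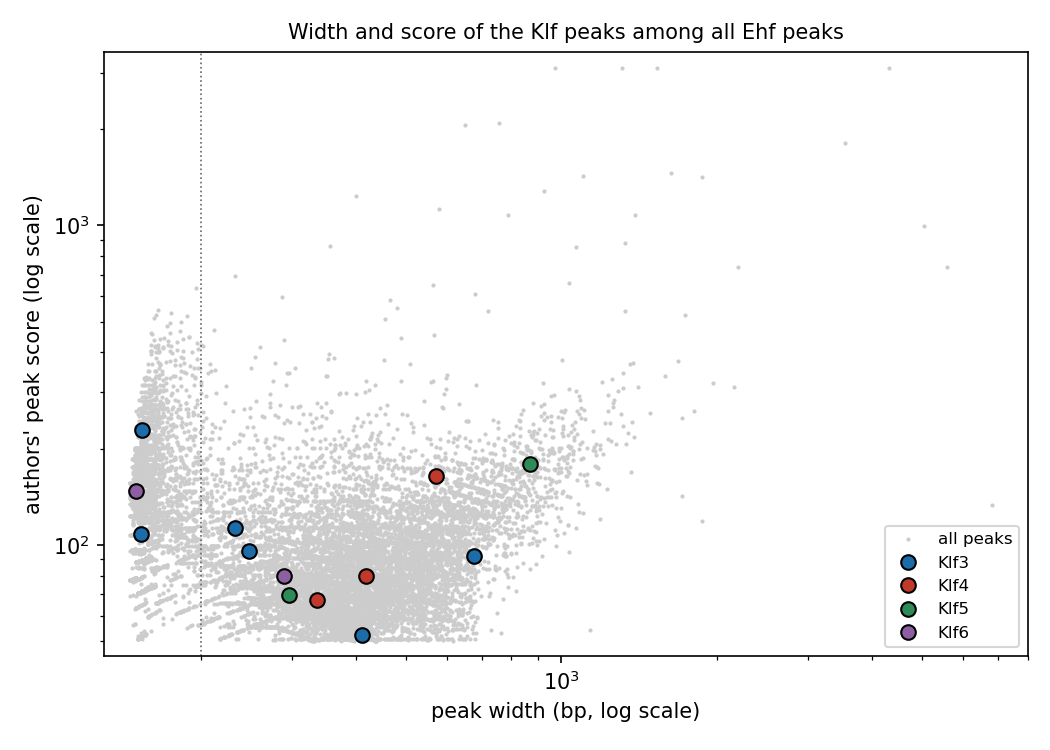
Width in bp (horizontal axis) and authors' score (vertical axis) of all 15384 Ehf peaks (grey) and of the 13 peaks of the Klf loci (coloured), both on log scales. The dotted line marks 200 bp; the top peaks of Klf3 and Klf6 lie left of it, at 154 and 150 bp, and those of Klf4 and Klf5 right of it, at 571 and 868 bp.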

How the data were processed

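The list has 5 columns and no header. Its score is a value per peak that the authors deposited, and all 15384 peak names start with MACS_peak. Build mm9, bedtools 2.11.2 and Bowtie 0.12.7 are listed in the submitters' processing notes. How the caller was set, in which version, and how the input entered is not given in the sources used here. In early MACS versions the column holds a scaled log p-value. Whether it does so here is unknown, and score was used only to describe and rank peaks within the list. Peaks were called on 1 library. Positions are as in the file, where a start may be off by 1 bp. No peak ended beyond its mm9 chromosome (lengths from GenomeInfoDb 1.38.1).

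Width is end minus start, and gaps run edge to edge. Windows had to lie whole between the first and last peak of a chromosome, and the locus itself was left out. Members, motifs and the width of 200 bp were chosen with earlier results of these data known. The comparison of windows with the same number of peaks was added after the values were seen. The comparison of runs of 3 peaks, made for Klf4 alone, was not planned either. All 13 peaks are named, which covers the extremes of each locus and the ends of its gaps. The code that counts peaks in windows was run on a simulated list with known counts, which checks the code only and not the shares of windows. RefSeq held all 4 gene names and 3 of the 4 promoters. No sequence of mm9 was used, so sequences of peaks, other Klf genes and distances to genes are not analysed here. Python 3.11.15, pandas 2.3.3, numpy 2.4.6, scipy 1.17.1 and matplotlib 3.10.9 were used.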

Additional observations from a re-analysis of the deposited data

How the results depend on the processing

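The read depth is unknown and the list is a single call, so no value has a replicate error. Of 115 values recomputed under alternatives, 84 stayed within 1.5 times the count, the 95% Wilson interval of the share of windows or the SD over peaks of the locus, and 31 moved. This yardstick is uneven. Klf5 and Klf6 have a single gap and so no SD, and any shift of it counted as moved, while with peaks 1 kb or less apart merged the median gap of Klf4 went from 0.641 to 1.22 kb and the span share of Klf3 from 0% to 19.0% without counting as moved. The share of windows with as many peaks or more moved most often. With only the peaks that scored at least the list median, it was 1.61% for Klf3, 38.9% for Klf4, 39.0% for Klf5 and 42.6% for Klf6, where Klf4, Klf5 and Klf6 kept 1 peak each and the median width of Klf4 became 571 bp. With peaks of 200 bp or more it was 12.3% for Klf3, 17.0% for Klf4, 21.0% for Klf5 and 47.5% for Klf6, which kept 1 peak. With peaks 1 kb or less apart merged it was 31.3% for Klf4. Among windows with at least 1 peak it was 8.56% for Klf3, 37.1% for Klf4, 51.4% for Klf5 and 55.3% for Klf6. Over all autosomes it was 35.1% for Klf5. With 0.5 of the window length it was 7.0% for Klf4, 34.6% for Klf5 and 38.3% for Klf6, with 1 peak each at Klf5 and Klf6. With double the length it was 8.09% for Klf3, 7.30% for Klf4 (8 peaks), which turns the order of these loci, 36.3% for Klf5 and 38.0% for Klf6. From midpoint to midpoint the gap was 92.8 kb at Klf5 and 66.1 kb at Klf6. Each setting changes the peaks or windows counted by construction. No gap could be given for Klf6 with peaks of 200 bp or more, where 1 peak was left. No paired analysis was possible because there is only 1 library of each kind.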
